A study of Mus musculus with 2 samples.

Results

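The data comprise 7 receptor genes of leukocyte migration in acutely injured mouse muscle, chosen by symbol from the 32285 genes listed: *Ccr1*, *Ccr2*, *Ccr7*, *Ccrl2*, *Cx3cr1*, *Cxcr2* and *Cxcr4*. They were read in single mononuclear cells of the right quadriceps of male WT mice of the C57BL/6J strain, 14 weeks old, which had been injected with 100 µL of 1.2% (w/v) BaCl2, a salt that kills myofibers, and collected 1 or 3 days later. There was 1 library per day, pooled from the cells of 5 mice, and both days were injured, so that neither replicates nor uninjured cells enter the comparisons. Myofibers are too large for the method, and the cells had passed enzymatic digestion, a density gradient, a sort on light scatter, freezing and thawing.

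Barcodes were ranked by their UMIs (unique molecular identifiers, each standing for 1 captured RNA molecule), and the top 7367 (day 1) and 6640 (day 3) were taken as cells, as many as the study lists. Of these, 6735 cells of day 1 and 4627 of day 3 had at least 1000 UMIs and 200 genes and at most 7.5% mitochondrial UMIs. The mitochondrial limit removed 3.76% of the day 1 cells and 27.2% of those of day 3. The libraries held 74852240 and 102565783 UMIs in all, the medians of the cells kept were 9389 and 14548 UMIs, and the libraries shared 0 cell barcodes. The list of possible barcodes differed (737280 and 6794880), so library chemistry cannot be told apart from the day. A level is given in CPM, the UMIs of a gene per 1000000 UMIs when all cells in a group are added up. Parentheses hold 95% intervals, which cover counting error only: exact Poisson intervals beside a CPM, Clopper-Pearson intervals beside a share. Because there is 1 library per day and cells are not replicates, no test was made and no p-value is given.

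Chemokine receptors are G protein-coupled receptors on the surface of leukocytes. They sense small secreted proteins, the chemokines, and steer the cells out of the bone marrow, through vessel walls and within tissue. CCR2, the receptor of CCL2 and CCL7, brings inflammatory monocytes into injured muscle. CX3CR1, the receptor of fractalkine (CX3CL1), marks monocytes that patrol vessels and many tissue macrophages. CXCR2 binds CXCL1, CXCL2 and CXCL5 and draws neutrophils, while CXCR4, the receptor of CXCL12, holds leukocytes in the marrow. CCR1 binds CCL3, CCL5 and other inflammatory chemokines, and CCR7 leads mature dendritic cells along CCL19 and CCL21 to lymph nodes. CCRL2 is an atypical receptor that binds chemerin and does not signal in the usual way.

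Of the 7 genes, 4 lie on mouse chromosome 9 (build GRCm38.p6): *Ccrl2* (chr9:111054834-111057518, minus strand), *Cx3cr1* (chr9:120048683-120068296, minus strand), *Ccr1* (chr9:123962126-123968692, minus strand) and *Ccr2* (chr9:124101918-124109140, plus strand). *Ccr1* and *Ccr2* point away from each other across 133225 bases. *Cxcr2* (chr1:74153994-74161246, plus strand) and *Cxcr4* (chr1:128588199-128592299, minus strand) are on chromosome 1, and *Ccr7* (chr11:99144199-99155077, minus strand) is on chromosome 11. No other annotated gene overlaps any of the 7, so that their reads cannot be confused with those of an overlapping neighbour.

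*Ccr1*, *Ccrl2*, *Cxcr2* and *Cxcr4* shared the cell class in which they were highest on both days, the neutrophil-like cells. The sequence just upstream of the start site is shown for *Ccr1*, *Ccrl2* and *Cxcr4*, because it held letters that were searched for, while the window of *Cxcr2* held none of them. The windows are of GRCm38.p6 from RefSeq, read 5′ to 3′ on the strand of the gene: 250 bases for *Ccr1* (chr9:123968693-123968942) and *Cxcr4* (chr1:128592300-128592549), and for *Ccrl2*, where an annotated exon overlaps the window, the 30 bases from 78 to 49 before the start (chr9:111057567-111057596). Capitals mark, in *Ccr1* and *Cxcr4*, the letters TTNCNNAA or TTNNGNAA that C/EBP factors of myeloid cells bind, and in *Ccrl2* the letters GGACTTTCC that NF-κB binds.
Ccr1: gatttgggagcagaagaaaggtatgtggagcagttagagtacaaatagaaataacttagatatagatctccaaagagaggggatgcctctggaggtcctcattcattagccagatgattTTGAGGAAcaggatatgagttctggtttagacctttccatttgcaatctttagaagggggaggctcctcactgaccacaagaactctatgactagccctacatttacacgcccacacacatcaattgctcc
Cxcr4: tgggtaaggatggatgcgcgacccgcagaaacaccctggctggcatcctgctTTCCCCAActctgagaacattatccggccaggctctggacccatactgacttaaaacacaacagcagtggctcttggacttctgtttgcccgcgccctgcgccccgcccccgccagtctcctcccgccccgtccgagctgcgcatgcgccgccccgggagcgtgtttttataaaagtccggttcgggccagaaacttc
Ccrl2: tcctcacacaGGACTTTCCcccggggcttc
The C/EBP letters began 131 bases before the start of *Ccr1* and 198 bases before that of *Cxcr4*, and they occur on either strand in 36.85% of the 32851 windows of 250 bases, so they are common. The window of *Ccr2* held them too, but the start site it is counted from lies within the gene span given above, so no position is given. GGACTTTCC or GGAAAGTCC occurs in 0.2831% of these windows, but these letters were chosen after the *Ccrl2* sequence had been seen. The windows of *Ccrl2* from its other start sites, chr9:111057271-111057520 and chr9:111057245-111057494, held none of the letters searched for. The letters AGGAAGT (PU.1; 7.686% of windows, with ACTTCCT) and TGANTCA (AP-1; 6.749%), and the interferon-response element ISRE (2.977%), were not found in the windows of the 6 receptors that had one. A match is a description of the letters, and binding was not measured.

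Cells were grouped by clustering without the receptors and without the naming markers, and each cluster was named after its marker genes. Monocyte/macrophage-like cells made up 3393 cells (50.4%) on day 1 and 2819 (60.9%) on day 3, neutrophil-like cells 2079 (30.9%) and 252 (5.45%), and dendritic cell-like cells 506 (7.51%) and 437 (9.44%). Fibroblast/FAP-like cells (fibro-adipogenic progenitors, the stromal cells of muscle) numbered 24 and 840, myogenic-like cells 5 and 206, and endothelial-like cells 92 and 67. A cluster of 636 and 6 cells led by *Cxcl5* and *Prg4* stayed unnamed. Because these pools are fixed by how many cells of each kind were caught, the level of a receptor over all cells mixed composition with expression. *Ccr1* was at 368 CPM over all cells on day 1 and at 72.1 CPM on day 3, *Ccrl2* at 532 and 116 CPM, *Cxcr2* at 43.9 and 1.54 CPM, and *Ccr7* at 11.8 and 2.78 CPM. *Ccr2* was at 252 and 172 CPM, *Cxcr4* at 134 and 131 CPM, and *Cx3cr1* at 5.50 and 91.9 CPM. *Cx3cr1* was thus the receptor that was higher over all cells of day 3, and the other 6 were lower, with overlapping intervals for *Cxcr4*.

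The receptors differed in the class in which they were highest. *Ccr1* was highest in neutrophil-like cells, at 1511 CPM (1478 to 1545) on day 1 and 758 CPM (695 to 825) on day 3, before the monocyte/macrophage-like cells at 391 and 105 CPM and the dendritic cell-like cells at 324 and 93.7 CPM. On day 3 the intervals of the latter classes overlapped. *Ccrl2* was highest in neutrophil-like cells as well, at 3519 CPM (3468 to 3570) and 2035 CPM (1931 to 2143), with 419 and 153 CPM in monocyte/macrophage-like cells and 294 and 176 CPM in dendritic cell-like cells. *Cxcr4* was at 531 CPM (511 to 551) and 361 CPM (318 to 408) in neutrophil-like cells, against 133 and 200 CPM in monocyte/macrophage-like and 172 and 182 CPM in dendritic cell-like cells. These 3 receptors were therefore read in all the myeloid classes and were graded between them.

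*Cxcr2* and *Ccr7* each had most of their UMIs in a single class. *Cxcr2* stood at 520 CPM (501 to 540) on day 1 and 118 CPM (94.0 to 146) on day 3 in neutrophil-like cells, which held 86.0% and 63.8% of all *Cxcr2* UMIs. *Ccr7* stood at 125 CPM (116 to 133) and 39.5 CPM (34.2 to 45.3) in dendritic cell-like cells, which held 96.4% and 85.5% of all its UMIs. *Ccr2* and *Cx3cr1* had most of their UMIs in the monocyte/macrophage-like and dendritic cell-like cells. *Ccr2* was highest in monocyte/macrophage-like cells on day 1, at 379 CPM (373 to 385) against 335 CPM (321 to 349) in dendritic cell-like cells. On day 3 the order was the other way, with 251 CPM (246 to 256) against 469 CPM (450 to 488). *Cx3cr1* was low in every class on day 1, at most 12.2 CPM (9.62 to 15.1) in dendritic cell-like cells, and reached 138 CPM (134 to 141) in monocyte/macrophage-like and 133 CPM (123 to 143) in dendritic cell-like cells of day 3, whose intervals overlapped. The class with the highest level was the same under all 8 alternative settings in which it was recomputed, for each receptor and day.

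**Figure D1:**
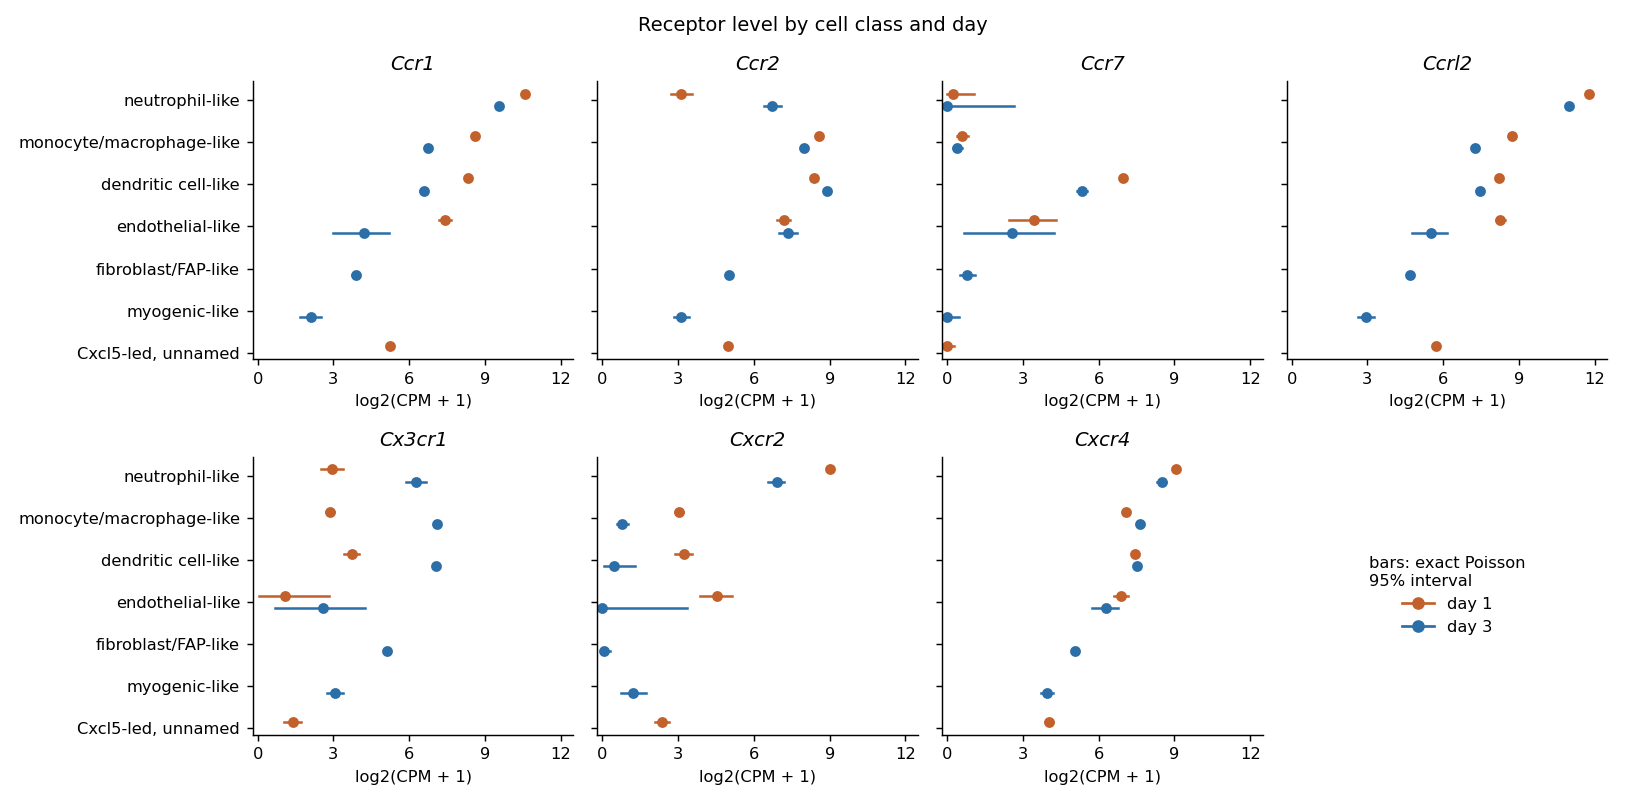
Level of the 7 receptors, as log2(CPM + 1), in each cell class with at least 50 cells, on day 1 (orange) and day 3 (blue). Points are CPM of summed UMIs of 1 library per day and bars the exact Poisson 95% intervals. *Ccr1*, *Ccrl2*, *Cxcr2* and *Cxcr4* were highest in neutrophil-like cells, from 520 to 3519 CPM on day 1, and *Ccr7* in dendritic cell-like cells, at 125 and 39.5 CPM.

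Cells of other classes were read for comparison, since free RNA gives UMIs in any cell. The endothelial-like cells read highest of these, with *Ccrl2* at 306 CPM on day 1 and 44.6 CPM on day 3. *Ccr1* was at 170 and 17.3 CPM, *Ccr2* at 143 and 163 CPM, and *Cxcr4* at 118 and 76.7 CPM. On day 1 the *Ccrl2* interval overlapped that of dendritic cell-like cells. Of these 92 and 67 cells, 11 and 39 lay in a sub-cluster with T/NK cell markers. The *Cxcl5*-led cells of day 1, with a median of 28102.5 UMIs, read *Ccr1* at 36.8 CPM, *Ccr2* at 30.5 CPM, *Ccrl2* at 51.4 CPM, *Cxcr4* at 15.6 CPM, *Cxcr2* at 4.16 CPM and *Cx3cr1* at 1.60 CPM. The fibroblast/FAP-like cells of day 3, with a median of 25650.5 UMIs, read *Ccr1* at 13.8 CPM, *Ccr2* at 31.3 CPM, *Ccrl2* at 24.9 CPM, *Cxcr4* at 32.6 CPM and *Cx3cr1* at 33.3 CPM. The myogenic-like cells of day 3 were lower for these 5, from 3.27 CPM for *Ccr1* to 14.7 CPM for *Cxcr4*. These UMIs were not spread evenly: the *Cxcl5*-led cells held 690 *Ccr1* UMIs, but 21.2% of the 636 cells had one, and 67.1% held no UMI of the 7 receptors while 20.3% held UMIs of at least 2. Their source was not tested beyond the estimate of free RNA given below. In empty barcodes with at most 100 UMIs the 7 receptors were read too, *Ccrl2* at 562 CPM on day 1 and 86.0 CPM on day 3 and *Cx3cr1* at 4.58 and 64.4 CPM, so that free RNA differed between the days as the cells did. Free RNA, estimated from markers that a class should lack, made up 1.711% and 1.566% of the UMIs of monocyte/macrophage-like cells. In neutrophil-like cells it came to 2.095% on day 1 and 36.33% on day 3, where 23 deep cells described below held fibroblast/FAP markers. Subtracting it took their day 3 level from 758 to 1054 CPM for *Ccr1* and from 2035 to 2884 CPM for *Ccrl2*. In the *Cxcl5*-led cells of day 1 it matched 57.98% of the *Ccr1* and 71.72% of the *Ccrl2* UMIs. *Cxcr2* was low in monocyte/macrophage-like cells, at 7.20 CPM (6.39 to 8.09) on day 1 and 0.719 CPM on day 3, and stood at 32.5 CPM in the empty barcodes of day 1. On day 1, 3.74% of them held a *Cxcr2* UMI (median 11142 UMIs), against 6.45% of the deeper *Cxcl5*-led cells, but the CPM of the latter was lower, at 4.16 (3.29 to 5.19), and so was their share when each cell was thinned to 3000 UMIs, 0.631% against 1.47%. The source of the *Cxcr2* UMIs in monocyte/macrophage-like cells was not tested.

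In monocyte/macrophage-like cells, *Ccr1* and *Ccrl2* were lower on day 3 and *Cx3cr1* was higher, each by more than 2-fold. *Ccr1* was at 391 CPM (385 to 398) on day 1 and 105 CPM (102 to 108) on day 3, a log2 ratio of day 3 over day 1 of −1.89 (−1.94 to −1.85). *Ccrl2* was at 419 and 153 CPM, a log2 ratio of −1.46 (−1.50 to −1.42). *Cx3cr1* was at 6.23 CPM (5.48 to 7.06) and 138 CPM (134 to 141), a log2 ratio of 4.46 (4.28 to 4.65), or 22.0-fold higher. Of the 6 receptors with at least 50 UMIs in the class, 1 was called at least 2-fold higher and 3 at least 2-fold lower, the third being *Cxcr2*, low on both days, at −3.30 (−3.90 to −2.79). *Cxcr2* passed the minimum through its 284 UMIs of day 1, against 32 on day 3. Of all 11582 genes read as deeply in these cells, 29% were called higher and 4.96% lower, and the median log2 ratio was 0.48. The median of the 6 receptors was −1.03. *Ccr7* had 20 and 14 UMIs, too few for a call.

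*Ccr2* and *Cxcr4* differed by less than 2-fold in the class, in opposite directions. *Ccr2* was at 379 and 251 CPM, a log2 ratio of −0.59 (−0.63 to −0.56), and *Cxcr4* at 133 CPM (129 to 137) and 200.1 CPM (196 to 204), a log2 ratio of 0.59 (0.54 to 0.64). With every cell weighted alike, as the mean of the cells' own CPM, the ratio of *Ccr2* shrank to −0.19, and with each cell thinned to 1000 UMIs to −0.20. Those settings gave −1.51 and −1.41 for *Ccr1*, and thinning gave −0.89 for *Cxcr2*. After thinning, the share of cells with a *Ccr2* UMI was 30.8% (29.2 to 32.4) on day 1 and 24.4% (22.9 to 26.1) on day 3. The thinned share was 29.7% and 11.95% for *Ccr1*, 26.8% and 12.8% for *Ccrl2*, 12.2% and 19.6% for *Cxcr4*, and 0.442% and 10.4% for *Cx3cr1*. Before thinning, 87.2% and 65.6% of the cells held a *Ccr2* UMI and 3.51% and 45.7% a *Cx3cr1* UMI. For comparison, 15.9% of the *Cxcl5*-led cells of day 1 and 19.3% of the fibroblast/FAP-like cells of day 3 held a *Ccr2* UMI, and 0.786% and 18.7% a *Cx3cr1* UMI, at the depths given above.

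The class was made of different clusters on the 2 days, and the receptors separated them. The clusters closest to the monocyte markers (*Plac8*, *Ly6c2*, *Chil3* and others) were led by *Ifitm6* (667 and 51 cells), *Plac8* (74 and 347) and *Rsad2* with other interferon-induced genes (27 and 546). Those closest to the macrophage markers (*C1qa*, *Apoe*, *Trem2* and others) were led by *Serpinb2* (1670 and 5) and *Cd163* (935 and 26) on day 1, and by *Gpnmb* (5 and 782), *Fcrls* (12 and 586) and *Stmn1* with the proliferation genes *Mki67* and *Top2a* (3 and 476) on day 3. Taken apart, which was decided after seeing the data, the clusters showed opposite directions for *Ccr2*. In the monocyte-list clusters, 768 cells of day 1 and 944 of day 3, *Ccr2* was at 533 and 669 CPM, a log2 ratio of 0.33 (0.27 to 0.38). In the macrophage-list clusters, 2625 and 1875 cells, it was at 339 and 141 CPM, a log2 ratio of −1.27 (−1.32 to −1.22). The median of all genes was 0.36 in the former and 0.47 in the latter, so relative to other genes *Ccr2* stayed level in the monocyte-list clusters and was lower in the macrophage-list clusters. The share of cells with a *Ccr2* UMI was 96.4% and 92.3% in monocyte-list clusters, and 84.5% and 52.2% in macrophage-list clusters.

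The opposite signs of *Ccr2* were seen in 6 of 6 ways of forming the clusters or names, the reported one included, with log2 ratios from 0.33 to 0.86 in monocyte-list and from −1.46 to −0.58 in macrophage-list cells. The cells on each side were not always the same. An *Rsad2*-led cluster was closest to the macrophage list with a mitochondrial limit of 15% and with log-normalization. With log-normalization, a *Ccl24*-led cluster with 1409 cells of day 1 was closest to the monocyte list. With each cell weighted alike they were 0.34 and −1.02. Within single clusters that had at least 50 cells on both days, *Ccr2* was at 529 and 746 CPM in the *Ifitm6*-led cluster and at 550 and 687 CPM in the *Plac8*-led cluster, higher on day 3 in both. The 74 *Plac8*-led cells of day 1 held more of the neutrophil markers than the other clusters of the class, as given below. The part of these markers' source in the *Ccr2* level of those cells was not tested. The median UMIs per cell were 11440 and 17560 in the macrophage-list clusters and 10390 and 9202 in the monocyte-list clusters, so that depth moved with the result in the former, and with each cell weighted alike the directions were those just given.

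The other receptors were graded between the same clusters. *Ccr1* was lower on day 3 in both kinds of cluster, at 494 and 241 CPM in monocyte-list clusters (log2 ratio −1.04) and 365 and 69.6 CPM in macrophage-list clusters (log2 ratio −2.39). *Ccrl2* was at 209 and 188 CPM in monocyte-list clusters (log2 ratio −0.15), a direction that turned to 0.21 when doublets were removed, and at 474 and 143 CPM in macrophage-list clusters (log2 ratio −1.72). *Cx3cr1* was higher in both, at 8.22 and 98.5 CPM (log2 ratio 3.57) and at 5.72 and 148 CPM (log2 ratio 4.69). *Cxcr4* was at 157 and 214 CPM (log2 ratio 0.44) and at 127 and 196 CPM (log2 ratio 0.63), near the medians of all genes. The intervals of the paired ratios did not overlap for *Ccr1*, *Ccr2*, *Ccrl2* and *Cx3cr1*, but whether the ratios differ between kinds of cell beyond the variation between mice was not tested.

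**Figure D2:**
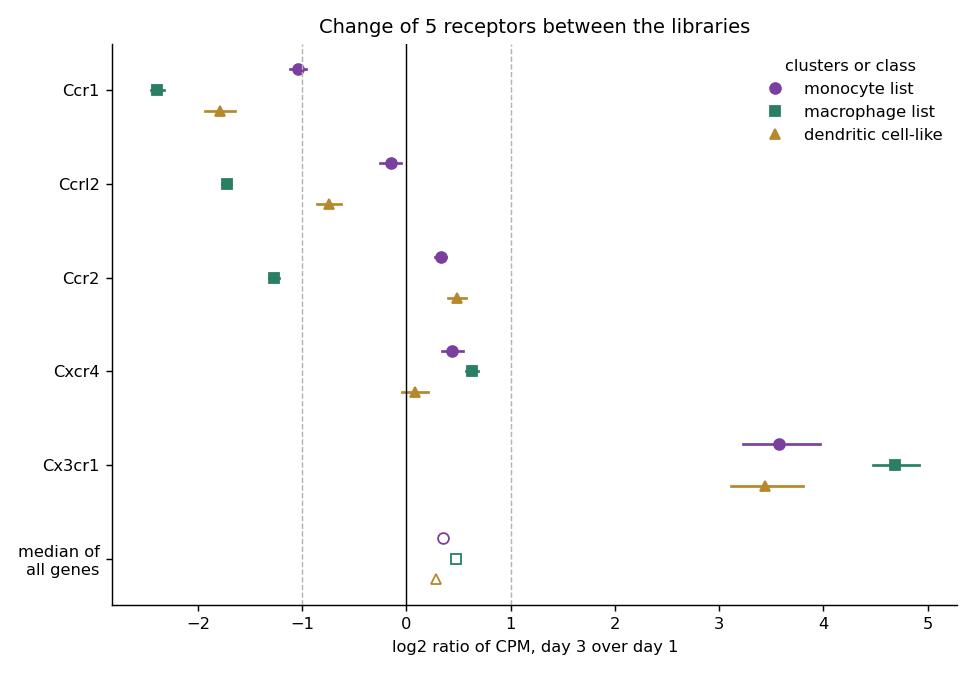
Log2 ratio of CPM, day 3 over day 1, of 5 receptors in monocyte-list clusters (purple circles), macrophage-list clusters (green squares) and dendritic cell-like cells (brown triangles). Bars are exact 95% intervals of a ratio of counts, dashed lines mark 2-fold, and open symbols give the median of all genes in the same cells. *Ccr2* lies at 0.33 in monocyte-list and −1.27 in macrophage-list clusters, and *Cx3cr1* is above 3 in all. The dendritic cell-like class is mixed. In its 5 sub-clusters that took the dendritic cell name, not drawn, *Cx3cr1* was at 1.56 and *Ccrl2* at 0.49. Over the class they were at 3.44 and −0.74.

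On day 3 the clusters fell into a steep order for *Ccr2*. It was at 746 CPM (672 to 825) in the *Ifitm6*-led, 687 CPM (658 to 718) in the *Plac8*-led and 653 CPM (633 to 674) in the *Rsad2*-led cluster. It was at 252 CPM (241 to 263) in the *Fcrls*-led, 143 CPM (136 to 150) in the *Stmn1*-led and 75.2 CPM (70.9 to 79.6) in the *Gpnmb*-led cluster. The first 3 overlapped in their intervals with a neighbour, and the last 3 did not. *Ccr2* was 9.14-fold lower in the *Gpnmb*-led than in the *Plac8*-led cluster, a log2 ratio of −3.19 (−3.30 to −3.09). *Ccr1* followed with 330.1 CPM in the *Plac8*-led, 300 CPM in the *Ifitm6*-led, 190.2 CPM in the *Rsad2*-led, 133 CPM in the *Fcrls*-led, 50.01 CPM in the *Gpnmb*-led and 48.0 CPM in the *Stmn1*-led cluster.

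*Cx3cr1*, *Cxcr4* and *Ccrl2* were ordered otherwise. *Cx3cr1* was at 181 CPM (172 to 191) in the *Fcrls*-led, 170 CPM (162 to 178) in the *Stmn1*-led and 116 CPM (111 to 122) in the *Gpnmb*-led cluster. It was at 104 CPM (95.7 to 112) in the *Rsad2*-led, 96.1 CPM (85.3 to 108) in the *Plac8*-led and 51.6 CPM (33.7 to 75.6) in the *Ifitm6*-led cluster. The macrophage-list clusters were thus above the monocyte-list clusters, although the intervals of the *Gpnmb*- and *Rsad2*-led clusters overlapped, as did those of the *Fcrls*- and *Stmn1*-led clusters and of the *Rsad2*- and *Plac8*-led clusters. *Cxcr4* was at 269 CPM in the *Fcrls*-led cluster and between 131 and 226 CPM in the other 5. *Ccrl2* was between 190 and 200.3 CPM in the *Plac8*-, *Fcrls*- and *Rsad2*-led clusters, at 152 CPM in the *Gpnmb*-led cluster, and at 93.8 and 91.3 CPM in the *Stmn1*- and *Ifitm6*-led clusters.

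**Figure D3:**
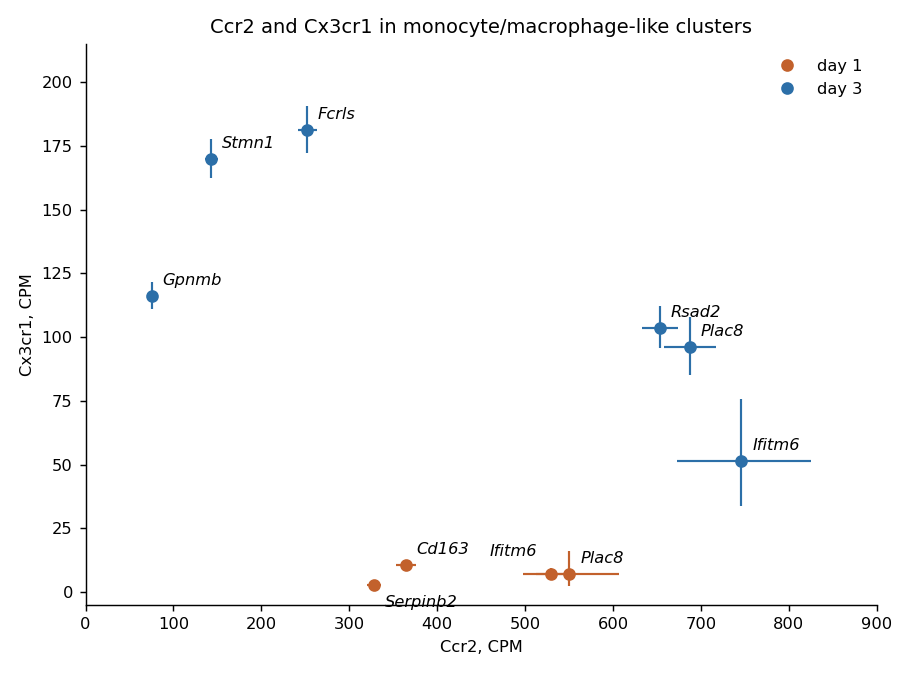
*Ccr2* against *Cx3cr1*, both in CPM, in the monocyte/macrophage-like clusters with at least 50 cells on a day; labels give the leading gene, and bars are exact Poisson 95% intervals. On day 1 (orange) *Cx3cr1* is at most 10.5 CPM in every cluster; on day 3 (blue) the *Fcrls*-, *Stmn1*- and *Gpnmb*-led clusters lie at high *Cx3cr1* and *Ccr2* from 75.2 to 252 CPM, and the *Rsad2*-, *Plac8*- and *Ifitm6*-led clusters at *Ccr2* from 653 to 746 CPM.

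On day 1 the clusters were closer to each other for *Ccr2*, at 550 CPM (497 to 607) in the *Plac8*-led, 529 CPM (513 to 547) in the *Ifitm6*-led, 364 CPM (353 to 375) in the *Cd163*-led and 328 CPM (320.3 to 336) in the *Serpinb2*-led cluster. *Ccrl2* was farther apart, at 603 CPM (592 to 614) in the *Serpinb2*-led cluster. The other leading genes of that cluster are *Ccl24*, *Arg1*, *Cxcl3*, *Il1a*, *Ppbp*, *Areg*, *Il1b*, *Ptgs2* and *Csf3*. *Ccrl2* was at 465 CPM in the *Plac8*-led, 244 CPM in the *Cd163*-led and 177 CPM in the *Ifitm6*-led cluster. The *Serpinb2*-led cluster was thus 3.40-fold above the *Ifitm6*-led one. *Ccr1* was at 642 CPM in the *Plac8*-led cluster and from 301 to 481 CPM in the others. *Cxcr4* was at 104 CPM in the *Serpinb2*-led cluster and from 156 to 187 CPM in the others. The 74 *Plac8*-led cells of day 1 also held *Cxcr2* at 66.9 CPM (49.3 to 88.7), above the 1.97 to 7.82 CPM of the other 3 clusters. The 12 neutrophil markers summed to 17996 CPM in these 74 cells, against 1049 to 3900 CPM in the other 3 clusters, and their part in the receptor levels of the *Plac8*-led cells of day 1 was not tested.

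Single cells of day 3 often held both *Ccr2* and *Cx3cr1* UMIs. Of the 2819 monocyte/macrophage-like cells, 30.6% held both, 35.0% *Ccr2* only, 15.1% *Cx3cr1* only and 19.3% neither. A *Cx3cr1* UMI was present in 46.6% of the cells with a *Ccr2* UMI and in 43.8% of those without, and after thinning in 10.9% and 10.2%, so that it was about as frequent with *Ccr2* as without. On day 1, 3.24% held both and 83.9% *Ccr2* only. *Ccr1* and *Ccr2* UMIs were more closely tied on day 3: a *Ccr2* UMI was present, after thinning, in 40.9% of the cells with a *Ccr1* UMI and in 22.2% of those without, against 32.0% and 30.3% on day 1. At 1000 UMIs a cell, UMIs of at least 2 of the 7 receptors were held by 26.0% of the day 1 and 19.2% of the day 3 monocyte/macrophage-like cells. This share was 78.8% and 64.3% in neutrophil-like cells, 24.3% and 20.8% in dendritic cell-like cells, and 1.26% in the *Cxcl5*-led cells of day 1 and 0.952% in the fibroblast/FAP-like cells of day 3.

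The neutrophil-like cells of day 3 had to be divided by depth before their receptors could be read. Of the 252 cells, 23 had at least 3000 UMIs and held 45.7% of all UMIs of the class. In these the 12 neutrophil markers summed to 1961 CPM, against 57291 CPM in the other 229 cells and 98653 CPM in all 2079 cells of day 1. The macrophage markers summed to 9538 CPM in the 23 cells and 898 CPM in the other 229, and the fibroblast/FAP markers to 4040 and 466 CPM. The 23 cells thus go against their name, and values are given with and without them, a choice made after seeing the data. In the 1782 cells of day 1 with under 3000 UMIs these sums were 98758 CPM for the neutrophil, 388 CPM for the macrophage and 28.0 CPM for the fibroblast/FAP markers, so the 229 cells of day 3 still held more of the latter lists and less of the first, and the part of this in their receptor levels was not tested.

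Over all cells of the class, *Ccr2* was at 7.75 and 105 CPM and *Cx3cr1* at 6.79 and 76.7 CPM, log2 ratios of 3.75 and 3.49. The 23 cells held 73 of the 74 *Ccr2* UMIs of day 3 and 48 of the 54 *Cx3cr1* UMIs. Among the cells with under 3000 UMIs (1782 and 229), *Ccr2* had 5 UMIs on day 1 and 1 on day 3, and *Cx3cr1* 31 and 6, a log2 ratio of 0.99 (−0.66 to 2.18). Neither of these monocyte receptors was then detectably different at this depth. *Cxcr2*, the neutrophil receptor itself, had 0 UMIs in the 23 cells, which allows up to 9.32 CPM.

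In the shallow neutrophil-like cells *Cxcr2* was lower on day 3 by more than 2-fold and *Ccr1* by less. *Cxcr2* was at 540.5 CPM (517 to 565) on day 1 and 217 CPM (173 to 269) on day 3, a log2 ratio of −1.31 (−1.65 to −0.997), and 58.5% and 26.2% of these cells held a *Cxcr2* UMI at medians of 2053.5 and 1584 UMIs. Over all cells of the class it was at 520 and 118 CPM, a log2 ratio of −2.13 (−2.47 to −1.83), and thinned shares were 38.3% (36.2 to 40.5) and 16.3% (11.9 to 21.4). *Ccrl2* was at 3501 and 3557 CPM in the shallow cells, a log2 ratio of 0.02 (−0.06 to 0.10), although over all cells the ratio was −0.79. *Cxcr4* was at 555 and 495 CPM, a log2 ratio of −0.16 (−0.39 to 0.05), against −0.55 over all cells. *Ccr1* was at 1568 and 1304 CPM, a log2 ratio of −0.26 (−0.40 to −0.13), against −0.995 over all cells. With each cell named by its highest marker score, an alternative, *Cxcr2* was at 409 and 216.5 CPM, a log2 ratio of −0.91, which is under 2-fold and ends the call. In the shallow cells the other 3 receptors that were highest in this class had log2 ratios from −0.26 to 0.02, where the median of 4598 genes was 0.34. Over all cells of the class, 2 of 6 receptors, *Ccr2* and *Cx3cr1*, were called higher and 1, *Cxcr2*, lower, against 32.9% and 8.49% of 5738 genes. The 2 called higher passed the minimum of 50 UMIs only through the 23 deep cells, which held 73 of 74 and 48 of 54 of their day 3 UMIs. Among the shallow cells 18.73% of genes were called higher and 5.35% lower. Of the receptors with enough UMIs there, *Cxcr2* was past 2-fold, lower, and none was higher.

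**Figure D4:**
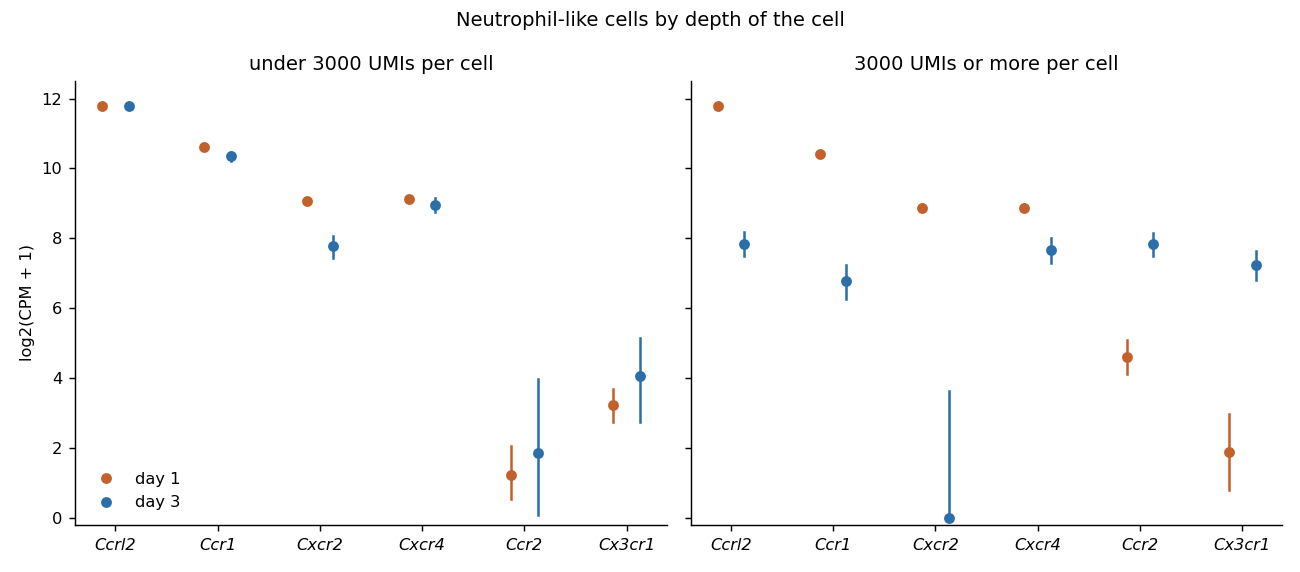
Level of 6 receptors, as log2(CPM + 1), in neutrophil-like cells with under 3000 UMIs (left; 1782 cells of day 1 and 229 of day 3) and with at least 3000 UMIs (right; 297 and 23 cells), on day 1 (orange) and day 3 (blue), with exact Poisson 95% intervals. On the left *Cxcr2* is lower on day 3, at 217 against 540.5 CPM, and *Ccrl2* is level; on the right the 23 cells of day 3 hold *Ccr2* and *Cx3cr1* and no *Cxcr2* UMI.

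The neutrophil-like cells formed 2 clusters, led by *Acod1* and by *Retnlg*, that carried the receptors in different proportions. Among cells with under 3000 UMIs on day 1 (946 and 836 cells), *Ccrl2* was at 4544 CPM in the *Acod1*-led and 2142 CPM in the *Retnlg*-led cluster, a log2 ratio of −1.08 (−1.14 to −1.03) of the latter over the former. *Cxcr4* was at 423 and 728 CPM (log2 ratio 0.78), *Cxcr2* at 450 and 659 CPM (log2 ratio 0.55), and *Ccr1* at 1403 and 1783 CPM (log2 ratio 0.35). The *Retnlg*-led cells were hence higher in the latter 3 receptors and lower in *Ccrl2*. On day 3 (107 and 122 cells) *Ccrl2* was at 4149 and 3022 CPM and *Cxcr4* at 403 and 578 CPM, in the same directions, while *Cxcr2* at 221 and 214 CPM and *Ccr1* at 1247 and 1356 CPM had intervals of the ratio that included 0. In single cells of day 1 thinned to 1000 UMIs, a *Cxcr2* UMI was present in 34.7% of neutrophil-like cells with a *Ccrl2* UMI and in 47.8% of those without, and a *Cxcr4* UMI in 40.4% of those with *Cxcr2* and in 32.4% of those without.

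In dendritic cell-like cells, *Ccr1* and *Ccr7* were lower and *Cx3cr1* higher on day 3 by more than 2-fold. Most *Ccr7* UMIs of day 1 lay in 14 cells, described below. *Ccr1* was at 324 and 93.7 CPM, a log2 ratio of −1.79 (−1.93 to −1.64), *Ccr7* at 125 and 39.5 CPM, a log2 ratio of −1.66 (−1.89 to −1.43), and *Cx3cr1* at 12.2 and 133 CPM, a log2 ratio of 3.44 (3.11 to 3.81). *Ccr2* was at 335 and 469 CPM (log2 ratio 0.49, 0.40 to 0.57), *Ccrl2* at 294 and 176 CPM (log2 ratio −0.74) and *Cxcr4* at 172 and 182 CPM (log2 ratio 0.08, −0.05 to 0.21). *Cxcr2* had 54 and 2 UMIs, a log2 ratio of −4.09 (−7.48 to −2.47), and so passed the minimum of 50 UMIs only through day 1. Of the 54 UMIs, 44 lay in a sub-cluster of 251 cells that took no name. The sub-clusters named dendritic cell, described below, held 6. Of the 7 receptors, 1 was called higher and 3, *Cxcr2* among them, lower, against 15.7% and 3.83% of 8675 genes, whose median was 0.28. After thinning, 27.9% (24.0 to 32.0) of the cells of day 1 and 37.1% (32.5 to 41.8) of those of day 3 held a *Ccr2* UMI.

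The dendritic cell-like class was itself mixed. Clustered again on their own, 121 of its 506 cells of day 1 and 229 of its 437 cells of day 3 lay in 5 sub-clusters that took the dendritic cell name, while others were closest to the monocyte or macrophage markers or had no name. In the 5 named sub-clusters, an added choice, *Ccr1* was at 219 and 86.4 CPM (log2 ratio −1.34), *Ccr2* at 369 and 467 CPM (0.34), *Cx3cr1* at 26.6 and 78.9 CPM (log2 ratio 1.56) and *Cxcr4* at 114 and 139 CPM (log2 ratio 0.28). *Ccrl2* was at 97.4 and 137 CPM, a log2 ratio of 0.49 (0.21 to 0.78), so that its direction turned. *Ccr7* was at 470 and 70.5 CPM, a log2 ratio of −2.73 (−2.99 to −2.49).

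*Ccr7* came from very few cells. On day 1, 14 cells formed a sub-cluster with the markers of migratory dendritic cells (*Ccl22*, *Ccl17*, *Fscn1*, *Il4i1*), of which *Ccr7* was the leading gene, and these held 661 of the 840 *Ccr7* UMIs of the library, or 78.7%. All 14 had a *Ccr7* UMI, the highest cell 113 of them. On day 3 this sub-cluster had 2 cells with 42 of 234 *Ccr7* UMIs, or 17.9%, and the largest part, 96 UMIs or 41.0%, came from 120 cells of a *Cd209a*-led sub-cluster, of which 24 had a UMI. *Ccr7* was left out of the genes used for clustering, but its level in a sub-cluster that it leads is a description of that sub-cluster. The migratory sub-cluster read *Ccr7* at 3036.5 CPM (2809 to 3277) on day 1 and 2495 CPM (1798 to 3373) on day 3. Its 2 cells of day 3 were too few to compare. Over the whole class, 6.92% of the cells of day 1 and 10.3% of those of day 3 held a *Ccr7* UMI. Of the 810 and 200 *Ccr7* UMIs of the class, 661 and 42 lay in the migratory sub-cluster. The log2 ratios of −1.66 over the class and −2.73 in the named sub-clusters therefore include the number of migratory cells caught, 14 against 2. They do not describe a level per cell, and the part of that number was not tested.

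A sub-cluster of 53 dendritic cell-like cells of day 3 with *Xcr1*, *Naaa* and *Wdfy4* among its leading genes, which are genes of the cross-presenting type of dendritic cell, stood apart for the receptors. It held *Ccr2* at 253 CPM (216 to 296), against 565 CPM (519 to 615) in the 120 *Cd209a*-led cells. *Ccr1* and *Cx3cr1* were at 3.19 CPM each, from 2 UMIs each, against 104 and 79.0 CPM in the *Cd209a*-led cells. *Ccrl2* was at 14.3 CPM (6.56 to 27.2) against 174 CPM, and *Cxcr4* at 54.2 CPM (37.5 to 75.7) against 146 CPM. *Ccr7* had 0 UMIs, which allows up to 4.78 CPM. Outside the myeloid cells, 39 cells of day 3 led by *Gzma* with T/NK cell markers, which the clustering had placed in the endothelial-like class, held *Ccr2* at 457 CPM (349 to 586) and *Cxcr4* at 150 CPM (91.4 to 231), and they accounted for 61 of the 66 *Ccr2* UMIs of that class on day 3.

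Other genes of the same system were read in the monocyte/macrophage-like cells, from lists that had been drawn up with earlier results of these data known. Of 17 other chemokine receptors, 5 had at least 50 UMIs, and 1 of these was called higher and 1 lower. Of all genes in these cells, 29% were called higher and 4.96% lower. *Cxcr3* was called higher from 0.101 to 1.12 CPM and the scavenging receptor *Ackr3* lower from 1.42 to 0.337 CPM, all at very low levels. *Ackr3* was highest in the *Cxcl5*-led cells of day 1, at 111 CPM, and *Ccr9* was highest in the endothelial-like class of day 3, at 104 CPM. Of the 67 cells of that class, 39 were the *Gzma*-led cells with T/NK cell markers, so the level of *Ccr9* is not that of endothelial cells alone.

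Of 10 receptors of other chemoattractants, all with at least 50 UMIs, 2 were called higher and 5 lower, with a median log2 ratio of −1.08. The shares of all genes were 29% and 4.96%. The anaphylatoxin receptors went in opposite directions: *C5ar1* was at 831 and 318 CPM (log2 ratio −1.39) and *C3ar1* at 207 and 509 CPM (log2 ratio 1.30). *Ltb4r1*, the receptor of leukotriene B4, was at 295 and 30.6 CPM (log2 ratio −3.27), *Ptafr*, that of platelet-activating factor, at 298 and 89.4 CPM (log2 ratio −1.74), and the formyl peptide receptor *Fpr2* at 33.9 and 8.06 CPM (log2 ratio −2.07). *Gpr183*, an oxysterol receptor, was at 17.8 and 66.6 CPM (log2 ratio 1.90).

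Most ligands of the receptors were lower on day 3 in the same cells. Of 18 listed, 15 had at least 50 UMIs, of which 12 were called lower and 1 higher, with a median log2 ratio of −2.60. The shares of all genes in these cells were 4.96% lower and 29% higher. The CXCR2 ligand *Cxcl2* was at 23944 and 2592 CPM (log2 ratio −3.21) and *Cxcl1* at 1967 and 157 CPM (log2 ratio −3.64). The CCR2 ligands *Ccl2* and *Ccl7* were at 4392 and 808 CPM (log2 ratio −2.44) and at 2760 and 859 CPM (log2 ratio −1.68). *Ccl6*, at 6259 and 662 CPM, and *Ccl9*, at 3726 and 589 CPM, which bind CCR1, were lower as well. The 1 ligand called higher was *Cxcl12*, the ligand of CXCR4, at 0.431 and 3.59 CPM. In dendritic cell-like cells 11 of 13 ligands were called lower and 0 higher, and in neutrophil-like cells 3 of 13 were called lower and 4 higher, the latter over all cells of the class, with the 23 deep cells. Of all genes, 3.83% were called lower and 15.7% higher in the dendritic cell-like class, and 8.49% and 32.9% in the neutrophil-like class, so that the 4 of 13 were close to the share of all genes.

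Of 22 genes of receptor signalling and desensitisation, 21 had at least 50 UMIs in monocyte/macrophage-like cells, and 7 were called higher and 0 lower. The shares of all genes were 29% and 4.96%. The median log2 ratio was 0.42 beside 0.48 for all genes. The G protein subunits *Gnai2* (1119 and 1105 CPM) and *Gnb1* (418 and 352 CPM) and the small GTPase *Rac2* (226 and 231 CPM) differed little. *Rgs1* and *Rgs2*, which shorten G protein signals, were at 198 and 651 CPM (log2 ratio 1.72) and at 128 and 350 CPM (log2 ratio 1.44). *Grk2*, the kinase that desensitises receptors, was at 136 and 123 CPM (log2 ratio −0.14). The group thus followed the share of all genes, in contrast to the ligands.

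The genes whose levels over 11 groups of class and day were most like each receptor were found among 10281 candidates, by Pearson's r of log2(CPM + 10). The 11 points come from only 2 libraries and share their depth and free RNA, so r is a description. For *Ccr1* they were *Ptafr* (r = 0.9988), *Bcl2a1b* and *Clec4e*, and for *Ccrl2* they were *Mapkapk2* (r = 0.9883), *Ccl3* and *Tnf*. For *Ccr2* they included *AI662270* (r = 0.9855) and *Jarid2*. For *Ccr7* they were *Ccl17* (r = 0.9537), *Gm38115* and *Ccl22*, and for *Cx3cr1* they were *Ifi206* (r = 0.9659), *Gpnmb* and *Ropn1l*. *Cxcr2* was most like *Amer2* (r = 0.990), *Asprv1* and *Rab44*, and *Cxcr4* like *Psd4* (r = 0.9871), *Pstpip1* and *Gmip*. The levels of *Ccl17*, *Ccl22* and *Gpnmb* also served to name cells, so that their likeness to *Ccr7* and *Cx3cr1* is bound to the classes.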

How the data were processed

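The files hold UMI counts, deposited without normalization and, per the labels, made by the authors with Cell Ranger 5.0.0 against mm10, although the file headers name Cell Ranger 4. Barcodes were taken as cells and filtered as the report states. For clustering, SCTransform was run (R 4.3.3, Seurat 5.3.0, sctransform 0.4.2) with the mitochondrial share and the S minus G2M score as covariates. Of 3000 variable features, the naming markers and all receptor-related lists were left out, and 10 PCs and a resolution of 0.8 were used. Marker lists with at least 3 markers raised in a cluster (2-fold, in at least 10% of its cells) were considered. The cluster took the name of the one with the highest mean log2 fold of its markers. It stayed unnamed where another class had more markers among its 10 leading genes. The folds used were chosen after the cluster table was seen. Doublets were kept, since the automatic threshold of Scrublet marked 1 cell of day 1 and 0 of day 3; an alternative removed 363 and 171 cells. CPM, intervals and log2 ratios (0.5 added to each count, exact binomial interval) came from scripts using pandas 2.3.3, scipy 1.17.1 and numpy 2.4.6 (Python 3.11.15). A call means at least 2-fold, among genes with at least 50 UMIs in the class over both days.

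The members and lists were chosen with earlier results of these data known. Genes of other lists are named when called in monocyte/macrophage-like cells or above 100 CPM in a class, at most 6 per list, those with the most UMIs, and *Cxcl12* because its count was 1. The 3 most like genes needed at least 500 UMIs. Intervals were run on simulated counts with 200 changed genes, drawn with counting error alone, as the intervals assume. They held the true ratio in 95.52% of 11582 genes in monocyte/macrophage-like, 95.97% of 5738 in neutrophil-like and 95.77% of 8675 in dendritic cell-like cells. This checks the calculation, and says nothing of variation between cells or mice. The intervals cover counting error only. A gene that the lists and the likeness rule name is not reported here.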

Additional observations from a re-analysis of the deposited data

Results flagged for a closer look

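For *Ccr2* the log2 ratio of day 3 over day 1 was −0.59 (−0.63 to −0.56) in monocyte/macrophage-like cells, but 3.75 (3.19 to 4.35) in neutrophil-like cells, so the directions were opposite; 73 of the 74 *Ccr2* UMIs of the latter on day 3 lay in the 23 deep cells that go against their name. It was also opposite to the ratio of *Ccr2* in dendritic cell-like cells, 0.49 (0.40 to 0.57). For *Cxcr4* the log2 ratio was 0.59 (0.54 to 0.64) in monocyte/macrophage-like cells and −0.55 (−0.75 to −0.37) in neutrophil-like cells, or −0.16 (−0.39 to 0.05) in those with under 3000 UMIs. With 1 library per day, none of these 3 differences between classes was tested.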

How the results depend on the processing

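Of 152 log2 ratios recomputed under other settings, 78 stayed within their counting interval, 66 moved in size and 8 changed sign, of which 7 were in neutrophil-like cells. In monocyte/macrophage-like cells, 29 of 48 stayed, 19 moved and 0 changed sign. There, a mitochondrial limit of 15% gave −0.55 for *Ccr2*. Removing doublets gave −1.83 for *Cxcr2* and 0.65 for *Cxcr4*. Log-normalization gave −0.48 for *Ccr2*, −1.41 for *Ccrl2* and 0.52 for *Cxcr4*. Naming each cell by its highest marker score gave −1.32 for *Ccrl2*, −2.46 for *Cxcr2* and 0.54 for *Cxcr4*. Weighting each cell alike gave −1.51 for *Ccr1*, −0.19 for *Ccr2*, −1.30 for *Ccrl2* and −2.22 for *Cxcr2*. Thinning to 1000 UMIs gave −1.41 for *Ccr1*, −0.20 for *Ccr2*, −1.36 for *Ccrl2*, 4.85 for *Cx3cr1*, −0.89 for *Cxcr2* and 0.75 for *Cxcr4*. In neutrophil-like cells the sign changed to −1.44 for *Ccr2* and 0.010 for *Ccrl2* with log-normalization, to 0.087 for *Ccr1*, −2.57 for *Ccr2*, 0.35 for *Ccrl2* and 0.13 for *Cxcr4* with the marker score, and to 0.014 for *Ccrl2* with thinning, or 0.023 in cells with under 3000 UMIs, an alternative added after seeing the data. *Ccrl2* in dendritic cell-like cells changed sign to 0.013 with log-normalization and to 0.49 in the named sub-clusters, and to 0.21 in monocyte-list clusters without doublets. The cause was not tested. Of the members, 0 were called higher in neutrophil-like cells under log-normalization or the marker score, against 2. With at least 200 UMIs a gene, 21.2% of genes were called higher in neutrophil-like and 9.29% in dendritic cell-like cells. No paired analysis was possible because each day has 1 library, of different mice.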
